A study of Mus musculus with 19 samples.

Results

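The genes of cholesterol and fatty acid synthesis described here are 29 genes, grouped by function, in a set drawn up with earlier results of these data known: 18 enzymes that build cholesterol from acetyl-CoA, 4 genes that sense sterols and drive the pathway's transcription, 6 genes of fatty acid synthesis and desaturation, and the sterol carrier Stard4. All 29 were listed in each of the 4 deposited tables, which share 15235 genes. They were followed in B lineage cells of mice immunized by intraperitoneal injection of sheep red blood cells and killed on day 28. The study compared mice labelled Pik3cg knockout with mice labelled wild type, and Pik3cg encodes the catalytic subunit p110γ of phosphoinositide 3-kinase. RNA was sequenced from germinal centre B cells of the spleen sorted as CD95+/GL7+ (4 libraries labelled knockout, 3 labelled wild type) and from splenic naive B cells sorted as CD3-/B220+/IgD+ (3 and 3). CD138+ antibody-secreting cells were taken from the spleen (3 libraries) and from bone marrow (3 libraries), all labelled wild type. The columns of the naive and antibody-secreting libraries labelled wild type are headed HET, so these mice may be heterozygous. The labels do not say which part of Pik3cg is deleted or in which cells, nor the age or strain of the mice. The design text counts 3 wild-type and 4 knockout animals, so libraries of different cell types may share an animal, and the labels do not tie them.

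Cells make cholesterol through the mevalonate pathway. Acetyl-CoA is condensed to HMG-CoA, reduced to mevalonate and built up to farnesyl diphosphate, which Fdft1 joins into squalene; Sqle and Lss close squalene into lanosterol, and a further chain of enzymes trims lanosterol to cholesterol. The transcription factors SREBP-2 (Srebf2) and SREBP-1 (Srebf1) switch these genes on when the endoplasmic reticulum is low in sterol: Scap escorts them to the Golgi for cleavage, and Insig1 holds Scap back when sterol is plentiful. Fatty acid synthesis draws on the same acetyl-CoA through Acly, Acaca and Fasn, and Scd1 and Scd2 put the first double bond into the chain. Dividing B cells need these lipids for new membrane, and antibody-secreting cells for an enlarged endoplasmic reticulum.

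The promoters of 4 members are shown because 3 of them, Idi1, Ebp and Msmo1, were lower in the germinal centre libraries labelled knockout, and the fourth, Hmgcs1, is the only member whose window held the sterol regulatory element core searched. Each sequence runs from 250 bases before to 50 bases after the annotated start, 5′ to 3′ on the gene's strand, from RefSeq on GRCm38.p6. Capitals mark a match to TCACNCCAC (the core of a sterol regulatory element) or to CCAAT (the box bound by the factor NF-Y), on either strand.
Idi1 (chr13:8885356-8885655, plus strand): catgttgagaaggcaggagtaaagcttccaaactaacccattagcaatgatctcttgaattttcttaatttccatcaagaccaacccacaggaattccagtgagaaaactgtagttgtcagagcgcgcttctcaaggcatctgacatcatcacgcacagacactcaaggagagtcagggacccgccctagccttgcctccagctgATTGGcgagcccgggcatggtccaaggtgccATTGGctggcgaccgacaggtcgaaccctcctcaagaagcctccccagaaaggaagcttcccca
Ebp (chrX:8193463-8193762, minus strand): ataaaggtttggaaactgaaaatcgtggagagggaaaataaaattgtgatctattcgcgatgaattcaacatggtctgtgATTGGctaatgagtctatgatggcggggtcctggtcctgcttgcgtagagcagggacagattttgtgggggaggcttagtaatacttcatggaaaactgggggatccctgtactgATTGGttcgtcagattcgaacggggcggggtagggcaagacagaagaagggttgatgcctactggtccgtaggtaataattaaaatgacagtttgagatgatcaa
Msmo1 (chr8:64733529-64733828, minus strand): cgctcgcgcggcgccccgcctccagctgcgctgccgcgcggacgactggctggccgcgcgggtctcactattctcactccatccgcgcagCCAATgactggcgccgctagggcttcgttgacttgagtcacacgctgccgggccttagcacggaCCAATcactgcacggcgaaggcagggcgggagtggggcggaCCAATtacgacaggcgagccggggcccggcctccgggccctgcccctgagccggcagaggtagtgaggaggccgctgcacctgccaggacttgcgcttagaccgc
Hmgcs1 (chr13:119690101-119690400, plus strand): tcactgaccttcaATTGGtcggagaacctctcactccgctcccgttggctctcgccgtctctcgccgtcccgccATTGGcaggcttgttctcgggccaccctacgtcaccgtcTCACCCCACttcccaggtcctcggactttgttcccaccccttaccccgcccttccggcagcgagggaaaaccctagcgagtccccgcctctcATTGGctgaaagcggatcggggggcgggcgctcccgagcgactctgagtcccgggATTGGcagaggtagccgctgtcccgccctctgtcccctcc
The RefSeq promoter table matched 23 of the 29 members; Fdps, Fdft1, Sqle, Scd1, Scd2 and Stard4 have no entry there. CCAAT was found in 19 of the 23, against 41.1% of the 27025 genes with a window and 43.7% of the 5788 of them that average at least 10 CPM. Mvk held 5 such matches and Nsdhl and Hmgcs1 held 4 each. TCACNCCAC was found in Hmgcs1 alone, at position −137 from the start as TCACCCCAC, against 1.44% of all genes. GGGCGG, the GC box, was in 19 of the 23 members, against 38.2% of all genes and 69.9% of the expressed ones. CACGTG, an E-box, was in 5 of the 23, against 8.09% of all genes and 12.8% of the expressed ones. The motifs searched do not contain one another. A match describes the letters in this window only.

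Values are CPM, a gene's share of the library's reads scaled to 1000000, in tables deposited separately for each cell type, at a depth of 10.2 M to 21.6 M reads per library. Pik3cg itself did not separate the labels: it ran from 6.55 to 66.0 CPM in the 4 germinal centre libraries labelled knockout and from 19.4 to 56.5 CPM in the 3 labelled wild type, and from 94.98 to 127 CPM against 110 to 115 CPM in naive B cells. Since the deleted part is not known, this value cannot check the labels, and groups are named as labelled throughout. The germinal centre libraries labelled wild type lack defining markers of that cell: Rgs13, Gcsam and S1pr2 were listed at 0 in all 3, and the 8 germinal centre markers summed to 484 to 668 CPM there against 2763 to 3725 CPM in those labelled knockout. Of these 8 markers, 7 were called higher in labelled knockout. Over all tested genes, 8.54% were called higher and 5.09% lower. The libraries labelled knockout also held more RNA of other cells: the T cell list summed to 1182 to 2472 against 56.97 to 109 CPM (10 of 13 tested markers called higher), the monocyte and macrophage list to 231 to 2172 against 96.9 to 236 CPM (4 of 11), and the erythroid list to 34.3 to 3059 against 3.14 to 20.8 CPM (3 of 5). Cd3g, Cd3d, Trbc2, Lyz2, C1qb and C1qc were at 0 in all 3 libraries labelled wild type. Of 10 plasma cell markers, 5 were called lower in labelled knockout and 1 higher. The sum of this list overlapped, at 4179 to 12230 CPM in labelled knockout and 7304 to 11585 CPM in labelled wild type. Among those called lower, labelled knockout against labelled wild type, Xbp1 averaged 478 against 3023 CPM, Mzb1 625 against 2313 CPM and Irf4 26.7 against 144 CPM. Of 8 B cell markers, 3 were called higher and 2 lower. Fcer2a averaged 62.3 against 1925 CPM, while Ms4a1 averaged 2929 against 1291 CPM, Cd22 278 against 91.8 CPM and Cd79b 1852 against 1142 CPM. Replicate 3 of the germinal centre libraries labelled wild type was listed at 0 for Xist and at 159 CPM for the Y-linked gene Ddx3y, which was at 0 in the other 6, and replicate 1 of those labelled knockout had the highest erythroid and macrophage sums. Whether the marker differences have a part in the germinal centre results below was not tested. In every comparison of sorted bulk cells, fewer cells of a type and less RNA per cell cannot be told apart.

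Cholesterol synthesis genes summed to more in germinal centre B cells labelled wild type than in those labelled knockout, and to less in both groups of naive B cells than in either. The 18 cholesterol enzymes summed to 1984, 2458 and 1896 CPM in the 3 germinal centre libraries labelled wild type and to 1177, 1039, 1124 and 1117 CPM in the 4 labelled knockout. The groups do not overlap, and the 4 libraries labelled knockout lie close together. In naive B cells the sum of the 18 enzymes was 544 CPM ± 49.3 (SD, n = 3) labelled wild type and 521 CPM ± 59.0 (n = 3) labelled knockout, which overlap. These sums carry no test, since the members were chosen as a group.

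Between labelled genotypes in germinal centre B cells, 4 of the 25 members tested were called lower and none higher: Idi1, Fdps, Msmo1 and Ebp. A member was tested where it averaged at least 10 CPM over the 7 libraries, and called where limma's p-value, adjusted by Benjamini-Hochberg over all 8522 tested genes, was under 0.05. Over all tested genes, 434 (5.09%) were called lower and 728 (8.54%) higher. The median difference of labelled knockout minus labelled wild type was −0.87 on the log2(CPM + 1) scale over the 25 members and 0.03 over all tested genes, and 22 of the 25 had a negative value against 48.9% of all genes. All 4 libraries labelled knockout lay below all 3 labelled wild type for 11 members, against 11.7% of all tested genes, and none lay wholly above, against 15.6%. The other 4 members, Mvk, Tm7sf2, Scap and Elovl6, averaged under 10 CPM and were not tested. The number of members called lower was 1 without labelled-wild-type replicate 2, which left Idi1, and 2 with labelled-wild-type replicate 3 left out, alone or with labelled-knockout replicate 1. The plot of each member by library shows both sets of values.

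**Figure D1:**
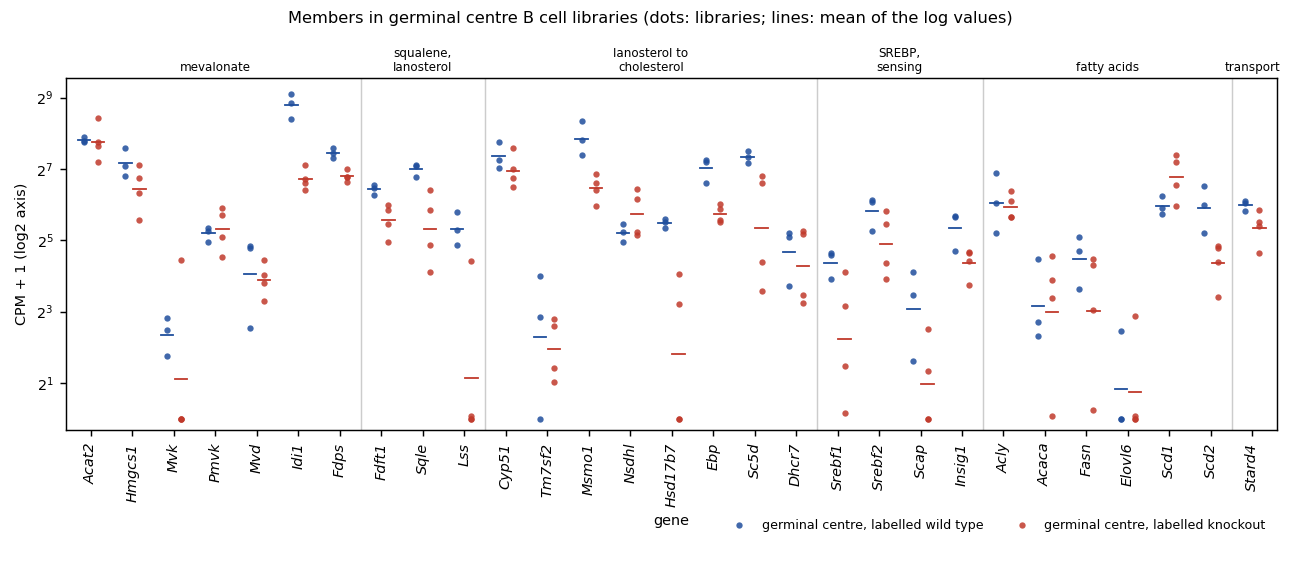
Level of each of the 29 genes in every germinal centre library, as CPM + 1 on a log2 axis, with genes ordered by step of the pathway; dots are libraries (3 labelled wild type in blue, 4 labelled knockout in red) and lines are means of the log values. Idi1 stands at 339 to 549 CPM in the libraries labelled wild type and at 84.8 to 138 CPM in those labelled knockout, and Scd1 overlaps, at 52.6 to 73.9 CPM against 60.8 to 168 CPM.

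Of the mevalonate steps, Idi1 and Fdps were lower in labelled knockout, and the 4 others tested did not pass. The 7 genes of this arm summed to 904 to 1203 CPM in labelled wild type and to 517 to 631 CPM in labelled knockout. Idi1 (ENSMUSG00000058258, chr13:8885501-8892451, plus strand, mm10) interconverts isopentenyl and dimethylallyl diphosphate, the isoprene units, and had 457, 549 and 339 CPM in the libraries labelled wild type and 96.7, 138, 105 and 84.8 CPM in those labelled knockout. The groups are far apart, and Idi1 fell by 2.06 on the log2 scale (SE 0.23, limma adjusted p = 8.37e-04), the smallest p of any member. Idi1 kept its call when any one library was left out. Fdps (ENSMUSG00000059743, chr3:89093588-89101959, minus strand), which makes farnesyl diphosphate, had 157, 173 and 190 CPM against 109, 98.6, 126 and 109 CPM. Fdps fell by 0.64 (SE 0.18, limma adjusted p = 0.0466). That call rests on single libraries: it was lost without any one library other than labelled-knockout replicate 3 (limma adjusted p from 0.0767 to 0.157). Hmgcs1, which makes HMG-CoA and so feeds the rate-limiting reductase, had 135, 192 and 110 CPM against 106, 78.9, 137 and 46.5 CPM, which overlap (log2 difference −0.72, limma adjusted p = 0.237). Acat2, the cytosolic thiolase at the head of the pathway, was high in both groups, at 239, 220 and 213 CPM against 145, 198.9, 217 and 343.1 CPM, with a log2 difference of −0.06 (95% interval −0.65 to 0.54). Pmvk, which phosphorylates phosphomevalonate, and Mvd, which decarboxylates diphosphomevalonate, had log2 differences of 0.12 and −0.16 with overlapping ranges. The mevalonate kinase Mvk was at 0 in 3 of the 4 libraries labelled knockout and at 20.6 CPM in the other, and at 2.36, 4.64 and 6.01 CPM in those labelled wild type.

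None of the 3 genes that form squalene and lanosterol passed the threshold, though each had all libraries labelled knockout below all labelled wild type. Their sum was 238 to 267 CPM in labelled wild type and 71.2 to 140 CPM in labelled knockout. Fdft1, squalene synthase, had 76.3, 92.2 and 87.7 CPM in labelled wild type and 62.1, 42.8, 29.9 and 56.6 CPM in labelled knockout (log2 difference −0.87, 95% interval −1.58 to −0.16, limma adjusted p = 0.104). Sqle, the epoxidase that starts ring formation and a second rate-limiting step, had 133, 136 and 109 CPM against 57.2, 28.3, 84.2 and 16.2 CPM (log2 difference −1.67, 95% interval −2.82 to −0.52, limma adjusted p = 0.0613). The libraries labelled knockout are spread widely for Sqle, and it passed without labelled-knockout replicate 3, the highest of them (−2.04, limma adjusted p = 0.0234). Lss, lanosterol synthase, had 28.0, 38.2 and 54.2 CPM against 20.6, 0, 0 and 0.05 CPM. Its log2 difference of −4.19 is large and its 95% interval of −6.90 to −1.47 wide, with limma adjusted p = 0.05003, just outside the threshold. Without labelled-knockout replicate 1, the only one of that group with more than a trace of Lss, the difference was −5.29 (limma adjusted p = 0.00728). Leaving out the library nearest the other group widens a difference by construction, so neither the Sqle nor the Lss pass adds support.

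Among the 8 enzymes from lanosterol to cholesterol, Msmo1 and Ebp were lower in labelled knockout, and 5 others tested did not pass. The 8 genes summed to 700 to 988 CPM in labelled wild type and to 352 to 521 CPM in labelled knockout. Msmo1 (ENSMUSG00000031604, chr8:64718139-64733792, minus strand), the sterol methyl oxidase, had 222.6, 324 and 167 CPM in labelled wild type and 116, 83.8, 61.7 and 95.8 CPM in labelled knockout. Msmo1 fell by 1.39 (SE 0.29, limma adjusted p = 0.0136), and lost its call without labelled-wild-type replicate 2, its highest library (−1.14, limma adjusted p = 0.0687). Ebp (ENSMUSG00000031168, chrX:8185329-8193512, minus strand), the sterol isomerase that moves the ring double bond, had 96.6, 151 and 146 CPM against 64.4, 46.3, 57.7 and 44.97 CPM. Ebp fell by 1.27 (SE 0.26, limma adjusted p = 0.0136), and lost its call without labelled-wild-type replicate 2 (−1.15, limma adjusted p = 0.0789) or replicate 3 (−1.18, limma adjusted p = 0.0640). The groups do not overlap for either gene. Hsd17b7, a sterol ketoreductase, had 47.3, 44.9 and 40.0 CPM against 15.6, 0, 8.19 and 0 CPM (log2 difference −3.68, limma adjusted p = 0.0599). It passed without labelled-knockout replicate 1, the highest of that group (−4.42, limma adjusted p = 0.0295). Sc5d, the desaturase that precedes the last step, had 143, 179 and 160 CPM against 96.2, 20.1, 11.0 and 111 CPM (log2 difference −1.98, limma adjusted p = 0.113). Here 2 libraries labelled knockout sit near the wild-type range and 2 far below it. Sc5d passed without labelled-knockout replicate 4, the highest of that group (−2.47, limma adjusted p = 0.0495). Leaving out the library nearest the other group widens a difference by construction, so neither the Hsd17b7 nor the Sc5d pass adds support. Cyp51, the lanosterol demethylase (−0.40), Nsdhl, a sterol dehydrogenase (0.53), and Dhcr7, which makes cholesterol from 7-dehydrocholesterol (−0.38), overlapped between groups with adjusted p from 0.413 to 0.765 by limma.

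The SREBP factors and sensors showed no called change between labelled genotypes in germinal centre B cells. Insig1, itself a target of SREBP, had 49.4, 25.1 and 50.5 CPM in labelled wild type and 24.4, 24.1, 20.5 and 12.4 CPM in labelled knockout, so that the lowest wild-type library sits just above the knockout range (log2 difference −0.98, 95% interval −2.01 to 0.06, limma adjusted p = 0.201). Srebf1 had 23.8, 14.0 and 23.1 CPM against 7.88, 1.77, 0.12 and 16.4 CPM (−2.15, limma adjusted p = 0.205), and Srebf2 69.1, 37.1 and 67.0 CPM against 43.0, 55.6, 14.0 and 19.6 CPM (−0.93, limma adjusted p = 0.287). Both overlap. Stard4, which carries cholesterol between membranes, had 65.6, 67.2 and 55.0 CPM against 44.9, 24.1, 41.0 and 56.9 CPM (−0.63, limma adjusted p = 0.278).

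In the fatty acid arm no member was called between labelled genotypes. Its 6 genes summed to 232 CPM ± 40.5 (n = 3) in germinal centre libraries labelled wild type and 224 CPM ± 43.9 (n = 4) in those labelled knockout. The 2 stearoyl-CoA desaturases lay in opposite directions. Scd1 had 52.6, 73.9 and 59.2 CPM in labelled wild type and 168, 60.8, 146 and 92.4 CPM in labelled knockout (log2 difference 0.81, 95% interval −0.00 to 1.63, limma adjusted p = 0.179). Scd1 overlaps through labelled-knockout replicate 2 and was called higher without it (1.09, limma adjusted p = 0.0468). Leaving out that library, the lowest of its group, widens the difference by construction, so the call adds no support. Scd2 had 36.2, 90.5 and 62.1 CPM against 9.61, 27.5, 19.9 and 26.3 CPM (−1.55, limma adjusted p = 0.0747), with no overlap. Per base of exon, the ratio of Scd1 to Scd2 was 0.91 to 1.62 in labelled wild type and 2.47 to 19.5 in labelled knockout. Acly, which makes cytosolic acetyl-CoA (−0.10), Acaca, the carboxylase that commits it to fatty acids (−0.18), and Fasn, the synthase (−1.45), overlapped and had adjusted p from 0.413 to 0.939 by limma. Elovl6, a chain elongase, was at 6.38 CPM in 1 library labelled knockout and at or near 0 in the other 3.

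In naive B cells no member and no gene was called between labelled genotypes, so the background was 0% of 8832 tested genes in either direction. At an unadjusted p under 0.05, limma gave 587 genes and none of the 22 members tested. The median member difference was −0.0045 on the log2 scale, with 11 positive and 11 negative, and no member's libraries lay wholly above those labelled wild type (5.99% of all genes) or wholly below (7.61%). Idi1 had 45.5, 23.7 and 47.6 CPM labelled wild type and 17.6, 35.1 and 27.6 CPM labelled knockout, which overlap (log2 difference −0.52, 95% interval −1.35 to 0.32). Scd1 had 904, 830 and 1003 CPM against 876, 918 and 741 CPM (−0.11, 95% interval −0.37 to 0.14). Msmo1 (−0.14, 95% interval −0.74 to 0.45), Ebp (0.10, −0.44 to 0.64) and Fdps (−0.41, −1.42 to 0.59) had intervals on both sides of 0. The widest difference was that of Scd2, at −2.06 (95% interval −4.45 to 0.32, limma adjusted p = 0.767), with 0.24 CPM in 1 library labelled knockout.

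**Figure D2:**
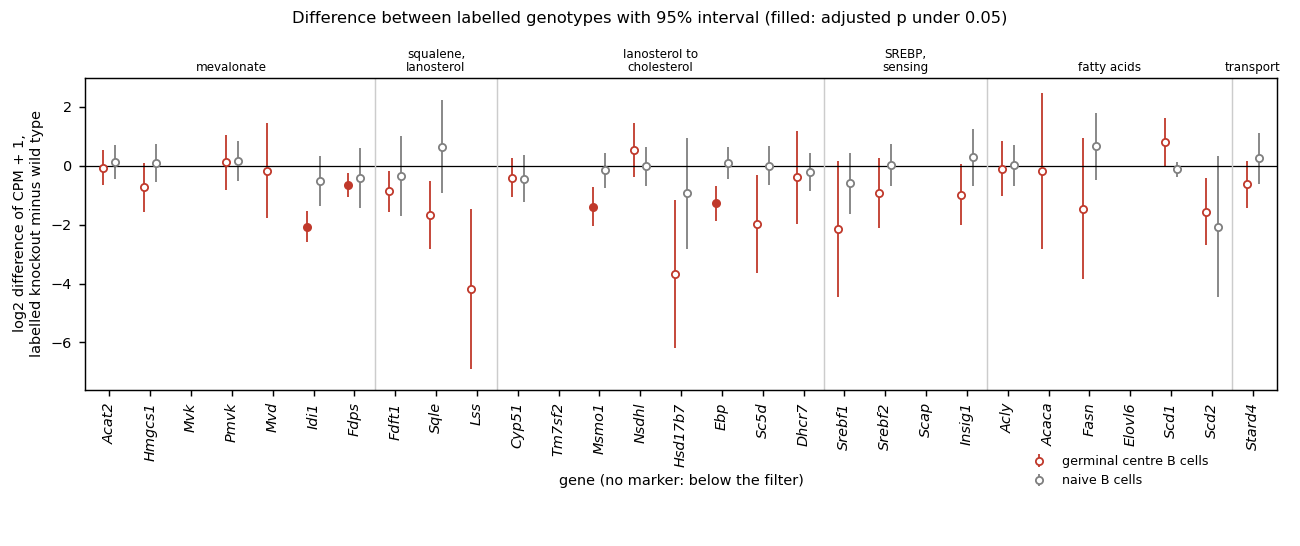
Log2 difference of CPM + 1, labelled knockout minus labelled wild type, with its 95% interval for each tested gene in germinal centre (red) and naive (grey) B cells; filled points have limma adjusted p under 0.05. The 4 filled points are Idi1, Fdps, Msmo1 and Ebp in germinal centre B cells, and no grey point is filled.

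The genotype difference itself differed between the cell types for 1 of 24 members. The contrast of the germinal centre difference minus the naive difference called 250 of 8871 genes lower (2.82%) and 445 higher (5.02%). Since the naive libraries labelled wild type are headed HET, the reference genotype may differ between the cell types. Ebp was the member called, at −1.37 (95% interval −2.14 to −0.60, limma adjusted p = 0.0332). Its call was lost without germinal centre labelled-wild-type replicate 2 or 3, or without replicate 1 or 3 of either naive group (limma adjusted p from 0.0691 to 0.0892, differences from −1.40 to −1.22). Idi1 (−1.55, 95% interval −2.50 to −0.59, limma adjusted p = 0.0508) and Msmo1 (−1.24, −2.14 to −0.34, limma adjusted p = 0.0968) did not pass. Idi1 passed without germinal centre labelled-knockout replicate 2 (limma adjusted p = 0.0366) or naive labelled-knockout replicate 1 (limma adjusted p = 0.0313). For Fdps the contrast was −0.23 with an interval of −1.11 to 0.65. Sqle had −2.32 (limma adjusted p = 0.173) and passed without naive labelled-wild-type replicate 3 (−3.14, limma adjusted p = 0.0357). Lss had −3.13 and passed without germinal centre labelled-knockout replicate 1 (−4.23, limma adjusted p = 0.0399), and Scd1 had 0.92 and passed without replicate 2 of that group (1.20, limma adjusted p = 0.0266). Each of these passes left out a library whose absence widens the difference, so none adds support.

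Across cell types the tables were deposited separately, so levels are described without a test. Of 24 members that reached the filter in the 2 groups, 14 had all 3 germinal centre libraries above all 3 naive ones, both labelled wild type, against 31.6% of all 8820 genes compared. The 14 were the cholesterol enzymes Acat2, Hmgcs1, Pmvk, Idi1, Fdps, Fdft1, Sqle, Lss, Cyp51, Msmo1, Hsd17b7, Ebp and Sc5d, with Stard4. Group means were 12.8-fold higher for Fdps, 11.5-fold for Idi1, 6.10-fold for Fdft1 and 5.77-fold for Sqle. Scd1 alone was wholly below, against 29% of all genes, and its mean was 14.7-fold lower. Between the groups labelled knockout, 6 of 20 members were wholly above (25.7% of all genes) and Scd1 again was the 1 wholly below (22.6%). Those 6 were Acat2, Idi1, Fdps, Fdft1, Cyp51 and Nsdhl, and Idi1 was 3.97-fold and Fdps 11.3-fold higher. Dhcr7, at a mean of 37.8 CPM in naive and 27.0 CPM in germinal centre B cells labelled wild type, and Srebf2, at 55.2 and 57.7 CPM, overlapped between the cell types.

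Scd1 was the most abundant member per length of exon in both groups of naive B cells, and in no other group. It averaged 186 CPM per kilobase ± 17.7 (n = 3) in naive B cells labelled wild type, followed by Ebp at 26.1 ± 4.34. In germinal centre B cells labelled wild type the order was Idi1 (128 ± 30.0), Acat2 (88.2 ± 5.21), Ebp (56.8 ± 13.0) and Fdps (41.2 ± 4.03), and Scd1 stood at place 15 of 29. In those labelled knockout Acat2 came first (88.8 ± 33.0) and Idi1 next (30.3 ± 6.55). Most of the fatty acid arm's sum in naive cells was Scd1: in the group labelled wild type the sum was 1048 CPM ± 96.8, of which Scd1 gave 912 CPM ± 86.7, against 232 CPM for that arm in germinal centre B cells labelled wild type. The summed level of all 29 genes was 2537 CPM ± 310 in germinal centre B cells labelled wild type and 1721 CPM ± 143 in naive ones. Without Scd1 the same sums were 2475 CPM ± 300 and 809 CPM ± 66.5.

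Antibody-secreting cells put most of their RNA into antibody. Immunoglobulin genes and Jchain took 72.4% to 76.7% of reads in spleen and 78.0% to 83.6% in bone marrow, against 3.7% to 4.2% in naive B cells, which lowers the CPM of every other gene there. On the deposited scale the 18 cholesterol enzymes summed to 256 CPM ± 29.7 in spleen and 146 CPM ± 19.6 in bone marrow. Of 19 members, 13 were wholly below naive B cells in spleen (83.6% of all genes) and 16 in bone marrow (88.1%). That is 68.4% and 84.2% of the members compared, under the share of all genes in both tissues. Between bone marrow and spleen, 5 of 13 were wholly below (28.6%): Fdps, Fdft1, Msmo1, Ebp and Insig1.

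With immunoglobulin genes and Jchain left out of the total, the summed cholesterol enzymes of antibody-secreting cells lay between naive and germinal centre B cells. Their sum was 2391 CPM ± 393 in germinal centre B cells labelled wild type and 1188 CPM ± 51.2 in those labelled knockout. It was 986 CPM ± 44.3 in spleen and 788 CPM ± 37.3 in bone marrow antibody-secreting cells, and 568 CPM ± 50.9 in the naive group labelled wild type and 543 CPM ± 60.9 in the naive group labelled knockout. Each neighbouring pair in this order is apart in every library, except the 2 naive groups, which overlap. The order is that of the sum, and single enzymes depart from it. Ebp averaged 214 CPM in spleen antibody-secreting cells, above both germinal centre groups (149 labelled wild type, 56.7 labelled knockout). Spleen means of Hsd17b7 (1.24 CPM) and Acat2 (37.1 CPM) were under those of the wild-type naive group (19.5 and 48.7). Acat2 alone averaged 243 CPM in germinal centre libraries labelled knockout. The fatty acid arm had no such order, at 262, 239, 256 and 284 CPM in germinal centre labelled wild type, labelled knockout, spleen and bone marrow, all overlapping, while that arm had 1094 CPM ± 101 (n = 3) in naive cells labelled wild type.

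**Figure D3:**
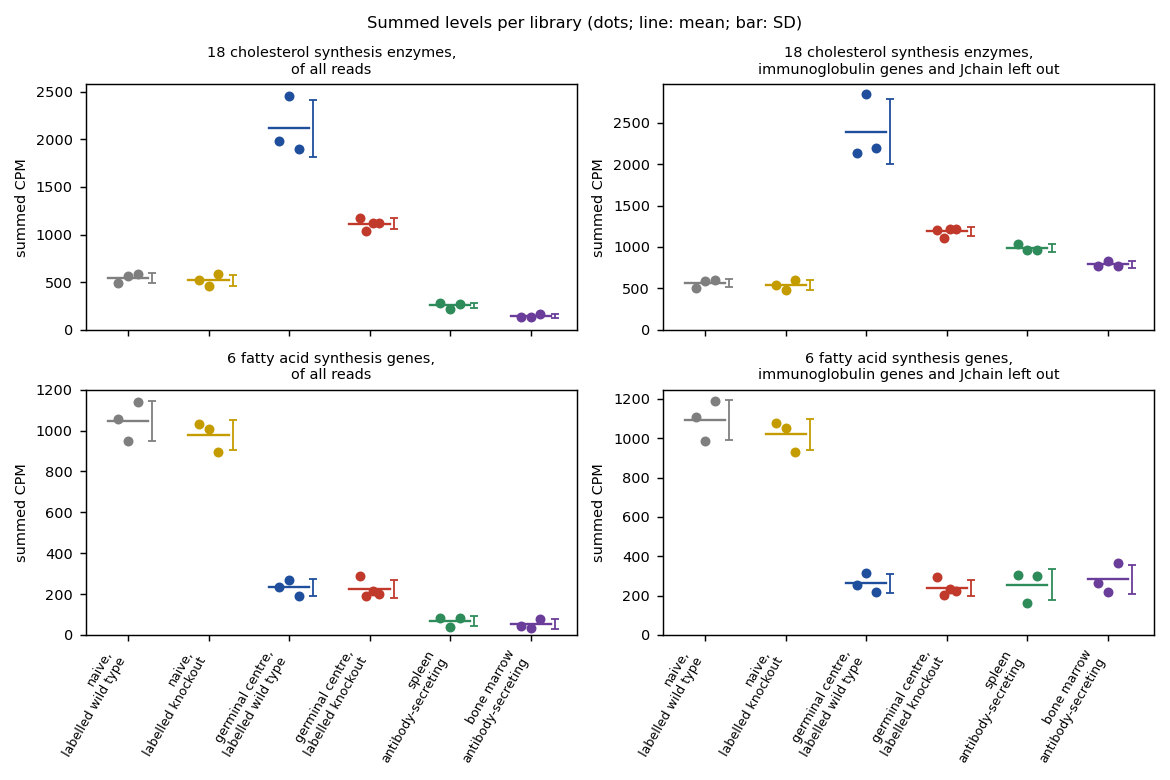
Summed CPM of the 18 cholesterol synthesis enzymes (top) and the 6 fatty acid synthesis genes (bottom) in every library of the 6 groups, of all reads (left) and with immunoglobulin genes and Jchain left out (right); dots are libraries, lines means and bars SD, on linear axes from 0. The antibody-secreting groups move from below naive B cells (256 and 146 CPM) to above them (986 and 788 CPM) for the cholesterol enzymes.

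On that scale 10 of 24 members in spleen were wholly above naive B cells labelled wild type (24.0% of all genes) and 2 below (26.9%); in bone marrow 8 of 23 were above (24.4%) and 3 below (21.2%). Insig1 had 115, 95.4 and 114 CPM in spleen and 80.8, 123 and 99.5 CPM in bone marrow, against 21.1, 10.1 and 33.9 CPM in naive B cells and 53.1, 29.04 and 58.4 CPM in germinal centre B cells labelled wild type. Both antibody-secreting groups stand above every library of the other 2. Ebp had 175, 245 and 221 CPM in spleen and 109, 182 and 126 CPM in bone marrow, against 51.7, 72.2 and 65.0 CPM in naive B cells, a mean 3.40-fold higher in spleen and 2.21-fold in bone marrow. Fdps was 4.60-fold and Fdft1 4.63-fold higher than naive in spleen, and 3.13-fold and 2.25-fold in bone marrow. Per length of exon Ebp was the most abundant member in both antibody-secreting groups and Insig1 the next. Scd1 lay below naive B cells in both, by 9.24-fold in spleen and 15.0-fold in bone marrow. Hsd17b7 was close to absent in spleen, with 0, 0.46 and 0.49 CPM on the deposited scale, where 3 reads are worth 0.18 to 0.23 CPM. In bone marrow Hmgcs1, Srebf1 and Scd1 were the 3 below naive B cells.

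With immunoglobulin genes and Jchain left out, bone marrow and spleen antibody-secreting cells were compared for 22 members. None of the 22 members was wholly above in bone marrow (8.26% of all genes) and 3 were wholly below (6.50%): Idi1, Fdps and Fdft1. Idi1 had 26.5, 6.43 and 23.3 CPM in bone marrow and 67.5, 34.8 and 39.0 CPM in spleen. Fdft1 had 20.2, 46.4 and 32.1 CPM against 63.0, 59.1 and 80.9 CPM, a mean 2.06-fold lower. With median-of-ratios scaling, 5 of 20 members were wholly below in bone marrow (8.75% of all genes), Hmgcs1 and Msmo1 besides these 3. The heat map of group means sets these patterns beside each other.

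**Figure D4:**
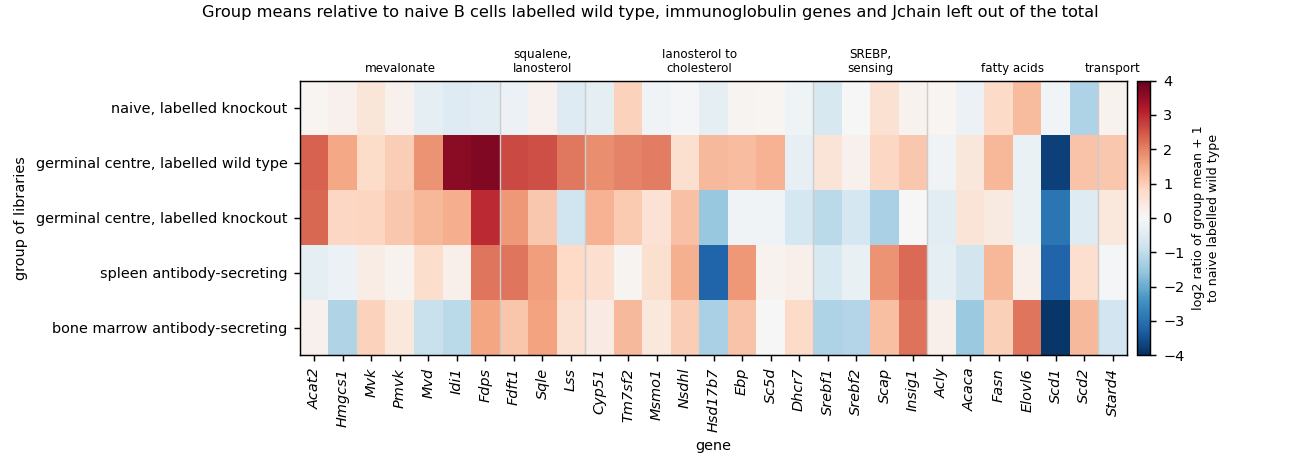
Group mean of each of the 29 genes relative to naive B cells labelled wild type, as the log2 ratio of mean + 1 with immunoglobulin genes and Jchain left out of the total; columns are genes in pathway order, rows are groups, red is higher and blue lower. Scd1 is blue and Fdps red in all 4 germinal centre and antibody-secreting rows, and Insig1 is redder in the 2 antibody-secreting rows than in the 2 germinal centre rows.

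Neighbouring lipid pathways were given from other lists, by counts of called genes in germinal centre B cells. Over all 8522 tested genes, 8.54% were called higher and 5.09% lower, and lists this small cannot be set apart from those shares by 1 or 2 genes. Of 8 tested genes that activate SREBP or degrade sterol-regulated proteins, none was called. Insig2, a relative of Insig1, averaged 39.2 against 74.4 CPM, labelled knockout against labelled wild type. Of 11 genes of sterol uptake, trafficking, esterification and efflux, 2 were higher and 1 lower. Apoe, the apolipoprotein, averaged 1185 CPM ± 540 (n = 4) against 52.2 CPM ± 17.6 (n = 3), higher by 4.42 on the log2 scale (SE 0.39, limma adjusted p = 2.87e-04). Abcg1, a cholesterol exporter, averaged 127 CPM ± 50.3 against 29.5 CPM ± 12.2 (2.07, SE 0.37, limma adjusted p = 0.00677). Npc2, which hands cholesterol out of the lysosome, averaged 181 CPM ± 72.4 against 546 CPM ± 20.1 and fell by 1.66 (SE 0.26, limma adjusted p = 0.00365). Macrophages also express Apoe strongly, and their marker sums, given above, averaged higher in the libraries labelled knockout but overlapped. Naive B cells averaged 713 CPM of Apoe labelled wild type and 785 CPM labelled knockout, with macrophage list sums averaging 70.8 and 48.8 CPM. The part of macrophages in the Apoe result was not tested.

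The single tested gene of the oxysterol list was lower: Gpr183, the receptor that guides B cells along oxysterol gradients, averaged 94.7 CPM ± 33.4 against 591 CPM ± 99.0 (limma adjusted p = 7.02e-04). None of 13 genes of the isoprenoid branch, 11 other genes of fatty acid synthesis and elongation or 17 of mitochondrial fatty acid oxidation was called. Examples are Ggps1, geranylgeranyl diphosphate synthase, at 97.1 against 57.7 CPM, the isocitrate dehydrogenase Idh1 at 95.6 against 28.3 CPM, the mitochondrial citrate carrier Slc25a1 at 8.55 against 46.6 CPM, and Acadvl, a first enzyme of β-oxidation, at 54.8 against 106 CPM. Of 16 genes of fatty acid activation and glycerolipid synthesis, 1 was called higher (8.54% of all tested genes) and 2 lower (5.09%). Lpin2 was higher (107 against 9.61 CPM, limma adjusted p = 0.00353). Lpin1 (4.26 against 39.9 CPM, limma adjusted p = 0.0416) and Agpat5 (31.0 against 87.5 CPM, limma adjusted p = 0.0454) were lower. Lpin1 and Lpin2 are phosphatidate phosphatases and Agpat5 an acyltransferase. In naive B cells none of the genes tested in these 7 lists was called. Apoe stood at 785 against 713 CPM and Gpr183 at 418 against 393 CPM there, and Elovl5, a fatty acid elongase, at 92.9 against 123.6 CPM.

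**Figure D5:**
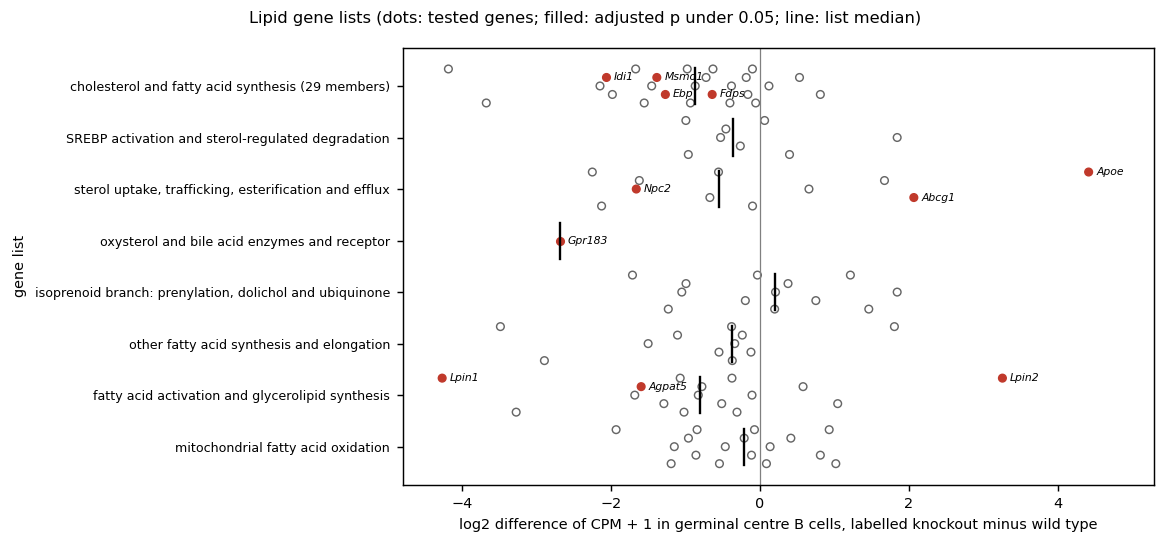
Log2 difference of CPM + 1 in germinal centre B cells, labelled knockout minus labelled wild type, for every tested gene of the 29 members and of 7 other lipid lists; dots are genes, filled dots have limma adjusted p under 0.05 and lines are list medians. The members' median is −0.87, and Apoe at 4.42 and Lpin1 at −4.27 lie at the ends.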

How the data were processed

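RNA-seq of sorted mouse B lineage cells was used as deposited by the authors, in 4 tables of CPM whose columns add up to 1000000. The submitters' processing notes name STAR and mm10. What counted the reads, on which annotation and with which strandedness, is not given in the sources used here. Overlapping genes therefore cannot be told apart, which among genes listed in the tables touches Fdft1 with Ctsb, Cyp51 with Akap9, Tm7sf2 with Vps51 and Srebf1 with Rai1; other members overlap unlisted genes, such as Fdps with Gm43738 (same strand) and Mvd with Gm20388 (opposite strand); Acat2 also has a close copy, Acat3. The germinal centre table has 0.0001 added to each value, which was subtracted. In the other 3 tables, 19 rows named by dates were left out. The columns of 9 naive and antibody-secreting libraries labelled wild type are headed HET, so these mice may be heterozygous. Germinal centre labels WT2 and WT3 name columns W3 and W2. They were matched by the label.

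The commonest low CPM value gave the worth of 1 read. Below 1000 reads, 61.5% to 67.8% of germinal centre values and 85.2% to 88.9% of others lay within 0.02 of whole reads, so the values derive from estimated counts and no count test was run. Read floors cover counting error only. Genes averaging at least 10 CPM were tested on log2(CPM + 1) with limma 3.58.1 (lmFit, eBayes with trend; R 4.3.3), Benjamini-Hochberg over all tested genes, threshold 0.05, with no covariate, germinal centre and naive tables apart, and a contrast of both for the difference. Differences on this scale understate changes of low genes. The labels do not tie libraries to animals, so p-values measure only the spread between these libraries, which may be technical. Replicates correlated across genes on the log2 scale at 0.681 to 0.743 in germinal centre labelled knockout, 0.827 to 0.873 in labelled wild type and 0.880 to 0.912 in naive B cells. The fit was also run on data simulated with normal noise on its own log2 scale, so that run cannot check whether such noise describes these libraries. Exon lengths are GENCODE M21 union exons. Python 3.11.15, pandas 2.3.3, NumPy 2.4.6 and matplotlib 3.10.9 did the rest. Alternatives covered pseudocount, filter, scaling, weights, robust estimation, a replicate block and leaving out libraries.

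Named are all 29 members and, of each other list, up to 4 tested genes with the smallest p in germinal centre and 2 in naive B cells. Members and lists were chosen with earlier results of these data known.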

Additional observations from a re-analysis of the deposited data

Results flagged for a closer look

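In 3 genes a single library labelled knockout stood far from the other 3 of the germinal centre group. Mvk was at 20.6 CPM in replicate 2 and at 0 in the rest. Lss was at 20.6 CPM in replicate 1 and at or near 0 in the rest. Elovl6 was at 6.38 CPM in replicate 2 and at or near 0 in the rest. Such a gap arises by chance in about 1 in 20 groups of 4 normally distributed values, and 29 genes were screened. That rate does not hold for these 3 genes. With the other libraries at or near 0, any detected value is flagged, whatever its size. The genotype difference of Ebp was lower in germinal centre than in naive B cells by a test of the difference itself, at −1.37 on the log2 scale (limma adjusted p = 0.0332). That call was lost when any of several single libraries was left out, as given above. Ebp was the 1 member called of 24 tested, and 2.82% of all genes were called lower.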

How the results depend on the processing

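Idi1 was called lower in germinal centre B cells in each alternative run (limma adjusted p from 3.45e-04 to 0.0113, differences −2.25 to −1.90). The number of members called lower was 7 with a pseudocount of 5 (524 of all genes lower), 8 with array weights (556 lower, against 434 as reported), and 2 (among 432 genes) with replicate 1 of germinal centre labelled knockout and replicate 3 of labelled wild type both left out. Leaving out 1 library at a time gave 603 to 1134 called genes, 1 to 5 members lower and 0 to 1 higher; the 603 and the single member, Idi1, came without labelled-wild-type replicate 2, and 732 and 712 genes were called without replicates 1 and 3. Fdps also lost its call with a filter of 1 CPM (limma adjusted p = 0.0712) or none (0.0806). The contrast of cell types gave 2 members lower with a pseudocount of 5, without immunoglobulin genes and Jchain, or with array weights, and 0 to 2 lower and 0 to 1 higher with a library left out. Uncalled values near 0 changed sign: Acaca to 0.044 with a pseudocount of 5 and 0.075 with array weights, and Acat2 to 0.097 without both libraries. Over single libraries left out, Acaca ran from −0.61 to 0.78, Acat2 from −0.28 to 0.13, Acly from −0.52 to 0.32, Mvd from −0.92 to 0.22 and Pmvk from −0.080 to 0.38; in naive B cells Ebp ran from −0.050 to 0.31 and Msmo1 from −0.33 to 0.061; in the contrast Fdps ran from −0.46 to 0.018. The cause of these shifts was not tested.

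Replicate numbers did not pair the libraries: same-numbered deviations correlated at 0.07, 0.00 and 0.01 in germinal centre and −0.05, 0.04 and −0.03 in naive B cells. With the number as a replicate block, on the libraries numbered 1 to 3, 825 genes and 3 members (Idi1, Msmo1 and Sc5d) were called in germinal centre B cells and 0 in naive ones. The same libraries without the block, a fit chosen after the data were seen, gave 1031 genes and 4 members.

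The summed level of the 29 genes depends on the scale. With immunoglobulin genes and Jchain left out it was 2869 and 1536 CPM in germinal centre labelled wild type and knockout, 1796 and 1698 in naive, 1460 in spleen and 1238 in bone marrow antibody-secreting cells. With median-of-ratios scaling it was 1563 and 844 in germinal centre labelled wild type and knockout, 1010.0 and 942 in naive, 845 in spleen and 680 in bone marrow.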
